A study of Nothobranchius furzeri with 9 samples.

Results

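The livers of adult killifish at 12 weeks were set against the average of young livers at 6 weeks and old livers at 23 to 24 weeks, so that genes highest or lowest in mid-life stood apart from genes that moved one way through life. The 3 adult libraries are 3 of the 9 libraries of the series. Each age had 3 libraries of bulk RNA, and the contrast was the adult mean minus the average of the young and old means, on the log2 scale, in 1 fit to all 9. All fish were male wild-type Nothobranchius furzeri, the turquoise killifish, of the GRZ strain, and the tissue was liver in every library; no treatment separated the groups. GRZ is an inbred laboratory strain of a very short-lived vertebrate that lives in seasonal ponds. The labels number the libraries 1 to 3 within an age but do not state that each came from 1 separate fish, so p-values measure the spread between these samples, which may be partly technical. A gene was called a peak where the Benjamini-Hochberg adjusted p of edgeR's quasi-likelihood test of the contrast was under 0.05 and the adult mean exceeded both others, and a dip where it was below both others.

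The liver makes most plasma proteins, stores and releases glucose and lipid, clears foreign compounds through cytochrome P450 and transport genes, and secretes bile. Its hepatocytes therefore carry a large share of transcripts for secreted proteins, which are folded in the endoplasmic reticulum. In many bony fishes exocrine pancreas tissue lies along the vessels and bile ducts that enter the liver, and in some species inside it. Pancreatic acinar cells store digestive enzymes as inactive precursors, and islet cells secrete insulin and glucagon.

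The libraries held 19600311 to 33951412 estimated counts and 15710 to 17369 genes with a count. The 25475 genes of the table included 4312 without a count, and 13971 were tested after a filter on low counts. Hepatocyte markers, such as hemopexin and apolipoprotein genes, were abundant at each age: the hepatocyte list summed to 282760, 324030 and 314890 CPM (counts scaled to a common library size) in adult libraries, against 201090, 223120 and 236200 in young and 157870, 188370 and 308370 in old. The libraries also differed in the share of ribosomal RNA and in likeness to each other. The share of counts on ribosomal RNA genes was 2.22%, 2.51% and 2.38% in adult libraries, against 29.65%, 4.52% and 4.74% in young and 21.98%, 15% and 7.07% in old. Most of this was mitochondrial ribosomal RNA, at 1.98%, 2.31% and 2.13% of counts in adult libraries. It was 27.58%, 3.94% and 4.45% in young and 19.20%, 13.17% and 6.17% in old. Over genes, correlations between adult libraries were 0.948 to 0.952; those of young replicate 1 with the other young libraries were 0.753 and 0.808, and those between old libraries 0.816 to 0.857. In bulk samples, fewer cells of a type and less RNA per cell cannot be told apart.

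Of the 13971 genes tested, 40 (0.286%) peaked and 0 (0.00%) dipped at 12 weeks. A 41st gene passed the test without being a peak: an aquaporin-9-like gene (ENSNFUG00015023172), a family that carries water and glycerol, had 23.4, 27.7 and 35.3 CPM in adult libraries, against 0.491, 0.927 and 0.175 in young and 28.1, 29.2 and 39.4 in old. Its level in adult and old livers overlapped, so it belongs to a rise after 6 weeks. At an unadjusted p under 0.05, 2365 genes passed, of which 1032 had the adult mean highest and 1235 had it lowest. Over all genes tested the adult mean was the highest of the 3 ages for 4683 (33.5%) and the lowest for 4965 (35.5%), with a median contrast of 0.04. Scaling by library size alone changed this split to 3110 highest (22.3%) and 5563 lowest (39.8%), and moved the median to -0.10. All 3 adult libraries lay above the 6 others for 740 genes (5.30%) and below them for 675 (4.83%). The count of peaks was 7 without young replicate 2, and 0 without adult replicate 1, adult replicate 3 or any 1 of the old libraries.

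The 40 peaks fell into 2 sets by how even they were across the adult libraries, a division made after the values were seen, at a ratio of 5 between adult replicates 1 and 2. In 34 genes adult replicate 1 was 7.97 to 15.6 times adult replicate 2 (median 12.3) and 2.53 to 3.99 times adult replicate 3. In the other 6 genes the ratio of adult replicate 1 to adult replicate 2 was 0.478 to 1.82. The contrast was 4.66 to 6.52 (median 5.31) over 32 of the 34, leaving out 2 with no count in old libraries, and 1.67 to 2.44 (median 1.88) over 5 of the 6, leaving out smc2 with 1 count in old libraries. All 3 adult libraries exceeded the 6 others for all 34 of the first set and for 5 of the 6 of the second. Taken against each other age alone, 0 of the 40 passed at an adjusted p under 0.05 against both young and old; 34 of the first set and 4 of the second had an unadjusted p under 0.05 in both.

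**Figure D1:**
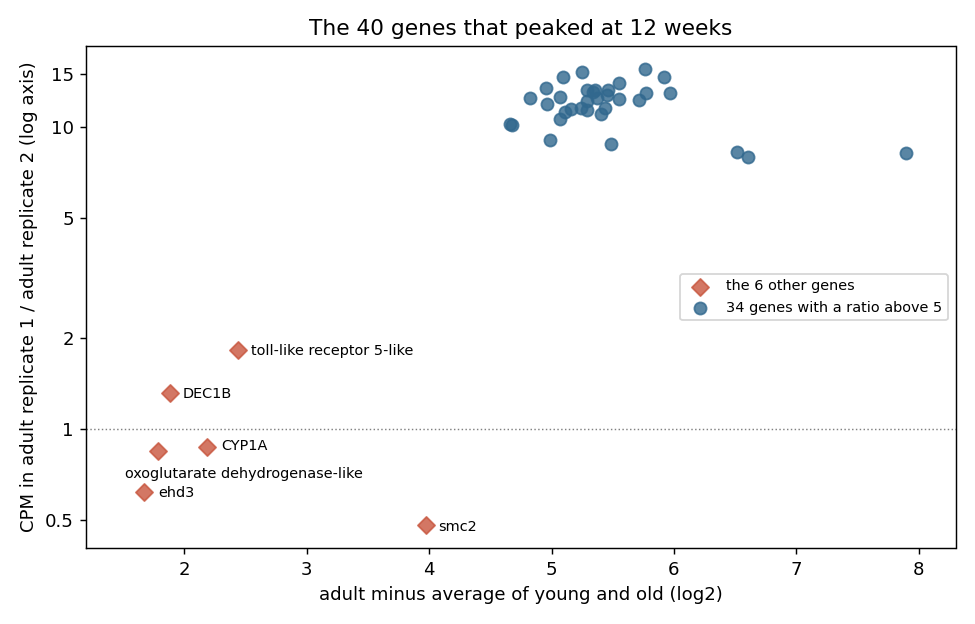
The 40 genes that peaked at 12 weeks, each a point, by the contrast of adult minus the average of young and old on the x axis (log2) and the CPM ratio of adult replicate 1 to adult replicate 2 on the y axis (log axis). The 34 genes at ratios of 7.97 to 15.6 lie apart from the 6 at 0.478 to 1.82 and have higher contrasts; the positions of smc2 and of 2 of the 34 on the x axis rest on 1 count or none in old libraries.

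The set of 34 was made up largely of digestive enzymes. In it were 13 members of the exocrine pancreas list, of which 15 were tested, and 18 genes annotated with serine-type endopeptidase activity, with 4 other peptidases; 13 had no symbol, and 8 had neither symbol nor description. Carboxypeptidase B1 (CPB1), which removes basic residues from the ends of dietary peptides, had 3755, 241 and 1009 CPM in adult libraries, against 22.9, 28.1 and 75.2 in young and 15.4, 25.9 and 26.0 in old (contrast 5.76 ± 0.73 SE, adjusted p = 0.0232). The lowest adult library was above each of the 6 others, although adult replicates 1 and 2 were far apart.

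Carboxypeptidase A1 (cpa1) reached 11712, 886 and 3618 CPM in adult libraries, against 52.3, 75.2 and 292 in young and 138, 89.7 and 94.0 in old. Elastase CELA1 had 12584, 946 and 3536 CPM in adult libraries, against 64.8, 99.6 and 318 in young and 176, 83.0 and 100.3 in old. Elastase ela2 had 9308, 765 and 3118 CPM in adult libraries, against 58.0, 107 and 235 in young and 132, 68.5 and 84.6 in old. These 3 proteases kept the same order of the adult libraries, with replicate 1 highest and replicate 2 lowest. ela2 overlaps chymotrypsin-C (CTRC; contrast 5.34 ± 0.75, adjusted p = 0.0232) on chromosome 15 in the table's coordinates, so reads may have been split between them. Chymotrypsin-like ctrl had a contrast of 5.78 ± 0.79 (adjusted p = 0.0232), with 6377, 492 and 1961 CPM in adult libraries, against 20.1, 44.7 and 169 in young and 38, 32.9 and 40 in old.

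Trypsin genes, whose product activates the other pancreatic proteases, were among the most abundant of the set. On the per-length scale of TPM (transcripts scaled to a fixed total), the trypsin-like gene ENSNFUG00015003282 reached 22040 in adult replicate 1, 2173 in adult replicate 2 and 7257 in adult replicate 3. The 2 genes with the symbol prss1 (ENSNFUG00015014769 and ENSNFUG00015003267) had contrasts of 5.44 ± 0.82 (adjusted p = 0.0291) and 5.11 ± 0.73 (adjusted p = 0.0235). Copies of a trypsin gene share sequence, so the assignment of reads among the members is uncertain.

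Lipid-digesting enzymes belonged to the same set. The bile-salt-stimulated lipases cel.1 and CEL, which hydrolyse dietary cholesterol esters, had contrasts of 5.92 ± 0.90 (adjusted p = 0.0299) and 5.55 ± 0.86 (adjusted p = 0.0328). cel.1 had 1617, 110.5 and 466 CPM in adult libraries, against 2.84, 4.13 and 26.2 in young and 22.1, 7.26 and 10.4 in old. Phospholipase A2 group IB (PLA2G1B, ENSNFUG00015018689) rose by 4.96 ± 0.72 (adjusted p = 0.0251), with 2308, 172 and 599 CPM in adult libraries, against 22.6, 23.9 and 78.8 in young and 35.9, 15.7 and 27.1 in old. Protein disulfide isomerase pdia2, a pancreas-rich folding enzyme, had 736, 64.8 and 205 CPM in adult libraries, against 1.69, 7.82 and 17.1 in young and 7.13, 10.3 and 7.33 in old (contrast 5.29 ± 0.77, adjusted p = 0.0251). OLA.16268, described as low choriolytic enzyme-like, rose by 5.72 ± 0.76 (adjusted p = 0.0232) in this set, with 1776, 145 and 518 CPM in adult libraries, against 7.64, 18.8 and 55.3 in young and 9.65, 6.95 and 9.65 in old. Apolipoprotein D-like apoda.2, of a lipid-carrying lipocalin family, had 571, 62.9 and 226 CPM in adult libraries, against 6.11, 6.36 and 18.6 in young and 9.43, 5.73 and 8.35 in old (4.99 ± 0.61, adjusted p = 0.0232). Only 2 of the 15 tested exocrine pancreas genes were not called: amylase amy2al2, with a contrast of 1.41 (adjusted p = 0.117), and a second pla2g1b gene (ENSNFUG00015007871), with -1.23.

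Summed over the exocrine pancreas list, the adult libraries had 81040, 7320 and 25473 CPM, against 829, 1130 and 2585 in young and 1890, 1545 and 1851 in old. Adult replicate 2 was nearest to the other ages, and the young and old libraries overlapped each other. With this level as a covariate, built from genes that include 13 of the 34, the median contrast of the same 32 genes was 0.29, and edgeR called 0 peaks (100 genes at an unadjusted p under 0.05). Whether these libraries differ in the pancreas tissue they hold was not tested. Islet hormones followed the same libraries only in part, and 0 of 7 tested islet genes were called. Insulin (INS) had 578, 3.01 and 399 CPM in adult libraries, against 0, 2.54 and 0.351 in young and 12.5, 0 and 145 in old, and the groups overlapped (5.48 ± 1.72, adjusted p = 0.213). GCGB, a glucagon gene, had 85.2, 0.674 and 47.8 CPM in adult libraries, against 0, 0.0883 and 0.14 in young and 13, 0 and 6.26 in old, and it overlapped too.

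**Figure D2:**
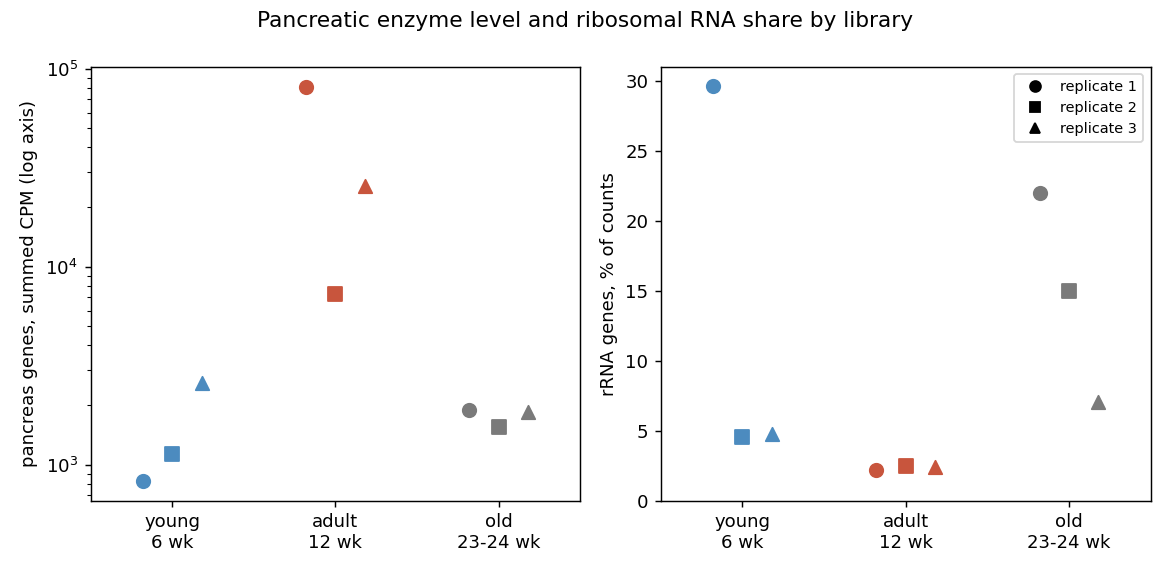
Each library's summed CPM over the exocrine pancreas list (left, log axis) and its share of counts on ribosomal RNA genes (right, in percent), for young, adult and old livers, with 1 symbol per replicate. The 3 adult libraries have the highest pancreas levels, at 81040, 7320 and 25473 CPM, and the lowest ribosomal RNA shares, at 2.22% to 2.51%.

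Of the 6 genes that were even across the adult libraries, CYP1A and a Toll-like receptor gene lay well above both other ages, and the other 4 mainly above old. Neither CYP1A nor the Toll-like receptor gene passed the test against young or old alone. Cytochrome P450 1A (CYP1A, chr7:60989829-60992247), which oxidises aromatic compounds, had 204, 233 and 271 CPM in adult libraries, against 29.8, 64.4 and 54.5 in young and 35.6, 42.6 and 84.5 in old. Its contrast was 2.19 ± 0.33 (adjusted p = 0.0291), with no overlap between the adult libraries and the others, and it stood 2.25 ± 0.41 above young (adjusted p = 0.13) and 2.12 ± 0.41 above old (adjusted p = 0.0771). A Toll-like receptor 5-like gene (ENSNFUG00015005529), of the family that senses bacterial flagellin, had 955, 524 and 559 CPM in adult libraries, against 31.9, 89.6 and 109 in young and 213, 267 and 133 in old (2.44 ± 0.39, adjusted p = 0.0356). Its 3 adult libraries also exceeded all 6 others. The gene stood 3.15 ± 0.51 above young (adjusted p = 0.105) and 1.73 ± 0.48 above old (adjusted p = 0.115). Leaving out adult replicates 1, 2 and 3 in turn gave CYP1A an adjusted p of 0.118, 0.104 and 0.169. Leaving out old replicates 1, 2 and 3 gave it 0.0864, 0.123 and 0.0548, and leaving out young replicates 1, 2 and 3 gave 0.0475, 0.0755 and 0.0725, so its call held in 1 of these. The Toll-like receptor gene had an adjusted p of 0.240, 0.0665 and 0.108 without each adult library in turn, 0.105, 0.122 and 0.0548 without each old library and 0.0475, 0.0755 and 0.0470 without each young library. With the exocrine pancreas level as a covariate the contrast of the Toll-like receptor gene was 1.11 (adjusted p = 1). That of CYP1A was 2.08, and neither gene passed the test. With the ribosomal RNA covariate the contrast of CYP1A was 1.26 (adjusted p = 0.488) and that of the Toll-like receptor gene 1.59 (adjusted p = 0.588).

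The 4 remaining genes differed less from young livers than from old. The gene ENSNFUG00015017190, described as oxoglutarate dehydrogenase b, an enzyme family of the tricarboxylic acid cycle, had 311, 368 and 424 CPM in adult libraries, against 256, 192 and 228 in young and 57.0, 50.4 and 44.5 in old (1.78 ± 0.21, adjusted p = 0.0232). Its difference from young was 0.71 ± 0.26 (adjusted p = 0.427) and that from old 2.86 ± 0.28 (adjusted p = 0.0137). DEC1B had 14.7, 11.2 and 16.7 CPM in adult libraries, against 10.5, 7.13 and 10.1 in young and 1.07, 2.03 and 1.72 in old (1.88 ± 0.32, adjusted p = 0.0477). The endocytic recycling gene ehd3 had 11.3, 18.4 and 16.4 CPM in adult libraries, against 9.12, 7.57 and 9.01 in young and 2.86, 2.33 and 3.02 in old (1.67 ± 0.28, adjusted p = 0.0496). The condensin subunit smc2, which compacts chromosomes for division, had 2.02, 4.23 and 3.69 CPM in adult libraries, against 2.35, 1.68 and 2.14 in young and 0, 0 and 0.0464 in old (adjusted p = 0.0477). Adult and young libraries overlapped for smc2 and did not for the other 3. DEC1B stood 0.62 ± 0.38 above young (adjusted p = 0.636), smc2 0.69 ± 0.70 (0.802) and ehd3 0.85 ± 0.34 (0.467). Old minus young was -2.15 for the oxoglutarate dehydrogenase gene (adjusted p = 0.0125), -2.52 for DEC1B (0.0286) and -1.64 for ehd3 (0.0731). For smc2 its adjusted p was 0.0241, on 1 count in old libraries. None of the 4 passed the test against young alone, so a peak over young livers is not shown for them. CYP1A and the Toll-like receptor gene did not pass that test either. The contrasts of the 5 genes other than smc2 were 1.11 to 2.61 over the alternatives tried, in all of which they were above 0. The call was lost in 20 of 25 alternatives for ehd3, in 18 of 25 for DEC1B and for smc2, in 14 of 26 for the Toll-like receptor gene, in 13 of 26 for CYP1A and in 9 of 26 for the oxoglutarate dehydrogenase gene.

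**Figure D3:**
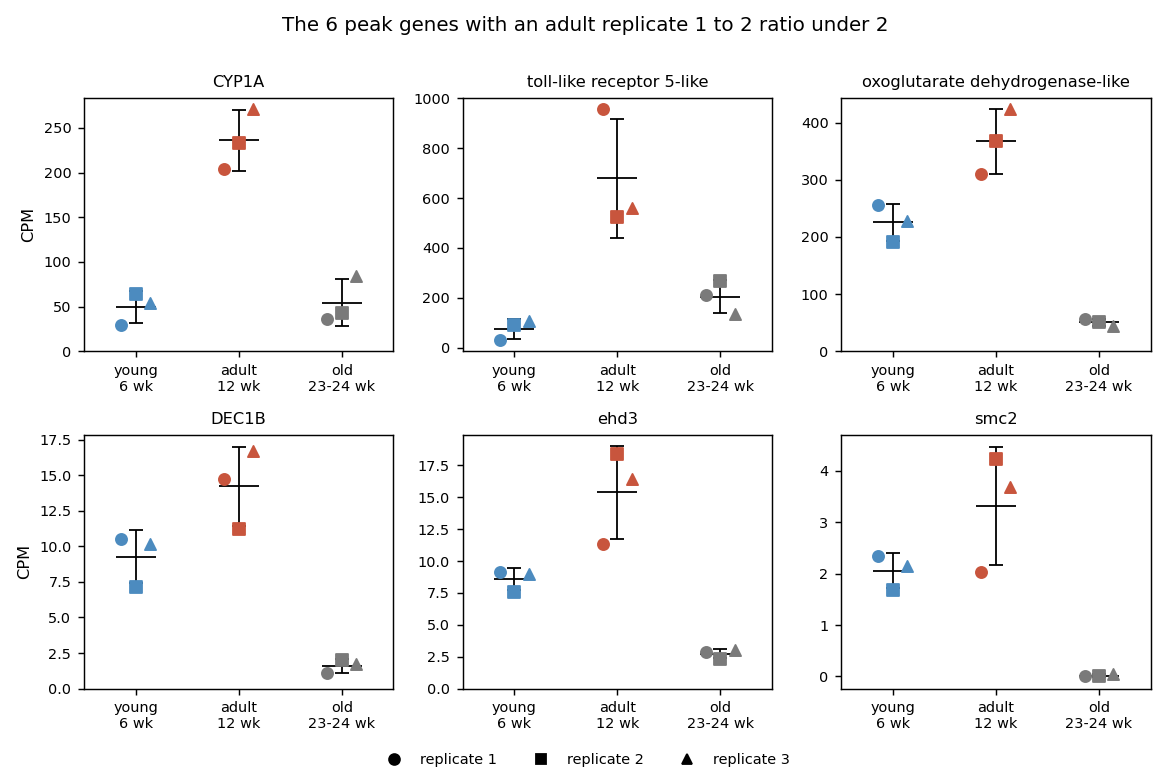
CPM in each library of the 6 peak genes that were even across adult libraries, in young, adult and old livers; horizontal lines are means and bars SD (n = 3). CYP1A and the Toll-like receptor gene are high in adult libraries against both other ages, and in the other 4 genes the young libraries lie closer to the adult ones than the old do.

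Beside CYP1A, the xenobiotic list of 19 tested genes had 13 with the adult mean highest (68.4%) and 5 with it lowest (26.3%). The shares of all genes were 33.5% and 35.5%. The list had a median contrast of 0.52, and 1 gene past the test. Carboxylesterase ces2b, which hydrolyses ester drugs and lipids, had 187, 156 and 173 CPM in adult libraries, against 37.0, 60.8 and 78.9 in young and 54.1, 29.6 and 57.6 in old. It missed the threshold (1.71 ± 0.29, adjusted p = 0.0538), and its lack of overlap was a condition for naming it. The nuclear receptor nr1i2, which switches on drug-clearing genes, was lower in adult libraries at 4.99, 6.74 and 5.09 CPM, against 14, 7.53 and 8.94 in young and 15, 15.4 and 9.42 in old (-1.05 ± 0.34, adjusted p = 0.221). A further 3 genes, picked once their values were known, were close to the threshold: the proprotein convertase furina (1.95 ± 0.34, adjusted p = 0.0594), the insulin-degrading enzyme IDE (1.15 ± 0.21, adjusted p = 0.0751) and the sterol-sensing INSIG1 (2.26 ± 0.43, adjusted p = 0.0926). The median of the xenobiotic list was -0.13 once ribosomal RNA share was a covariate.

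Plasma protein genes had more members with their highest mean at 12 weeks than the 33.5% of all genes, but none past the test. Of 18 complement genes 10 were highest in adult livers and 1 lowest (median contrast 0.63), of 28 coagulation genes 19 and 4 (0.40), and of 15 acute phase and carrier genes 9 and 2 (0.20); of the 12 hepatocyte markers 9 were highest and 2 lowest (0.22). The protease c1r, which starts the classical complement cascade, had 866, 864 and 1062 CPM in adult libraries, against 108, 215 and 284 in young and 361, 412 and 783 in old (1.52 ± 0.34, adjusted p = 0.145). Inter-alpha-trypsin inhibitor ITIH1, which stabilises hyaluronan, had 4073, 4639 and 4726 CPM in adult libraries, against 991, 1550.2 and 1900.3 in young and 764, 1021 and 2262 in old (1.66 ± 0.34, adjusted p = 0.117). Plasminogen (plg), the precursor of the clot-dissolving protease, had 6630.5, 6540.2 and 7447 CPM in adult libraries, against 1936, 3273 and 3727 in young and 2274, 2414 and 4581 in old (1.18 ± 0.29, adjusted p = 0.192). In these 3 genes no adult library overlapped the others, which was a condition for picking them. Ceruloplasmin (CP), a copper-carrying ferroxidase, had a contrast of 2.18 ± 0.52 (adjusted p = 0.167). Under the ribosomal RNA covariate, the list medians were 0.33 for complement, -0.06 for coagulation and -0.01 for acute phase genes. With the exocrine pancreas level as a covariate, 5 of the 18 complement genes were highest (median 0.11).

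The lipoprotein and bile acid lists had a higher share of members highest at 12 weeks than all genes did, with no member called. The called apolipoprotein D-like apoda.2 is on neither list. Of 25 apolipoprotein and lipoprotein genes 14 were highest in adult livers and 4 lowest (median 0.39), and of 15 bile acid genes 9 and 2 (0.80). Hepatic lipase (lipca) had a contrast of 1.03 ± 0.26 (adjusted p = 0.193) and lipoprotein lipase (LPL) 1.68 ± 0.47 (adjusted p = 0.203). The fibroblast growth factor receptor fgfr4, through which a gut hormone restrains bile acid synthesis in mammals, had 51.0, 56.1 and 68.1 CPM in adult libraries, against 14.7, 3.40 and 4.21 in young and 14, 15.5 and 45 in old (2.11 ± 0.51, adjusted p = 0.176). The adult libraries of fgfr4 lay above all others, and a lack of overlap was a condition for naming it. Of 39 fatty acid oxidation genes 16 were highest in adult livers and 7 lowest (median 0.27), but without young replicate 1 it was 11 highest, or 28.2%, beside 28.9% of all genes. The peroxisomal enzyme hsd17b4, which shortens very long fatty acids, had 210.1, 237 and 252 CPM in adult libraries, against 96.1, 123 and 127 in young and 122, 131 and 203 in old (0.81 ± 0.24, adjusted p = 0.209). CPT1B, which loads fatty acids for entry into mitochondria, was lower, with 2.31, 1.62 and 0.762 CPM in adult libraries, against 13.4, 5.83 and 5.79 in young and 2.75, 7.00 and 3.25 in old (-1.94 ± 0.57, adjusted p = 0.21). With the ribosomal RNA covariate, the medians were 0.07 for the apolipoproteins, -0.08 for bile acid genes and -0.20 for fatty acid oxidation.

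Amino acid, methionine, glucose and iron genes also had their highest mean at 12 weeks more often than all genes did. The adult mean was highest for 28 of 60 amino acid breakdown genes and lowest for 9 (median 0.38), for 17 and 5 of 31 methionine and one-carbon genes (0.51), for 20 and 4 of 41 glycolysis and gluconeogenesis genes (0.40), for 17 and 5 of 27 tricarboxylic acid cycle genes (0.48), and for 17 and 5 of 34 iron and heme genes (0.40). Methionine adenosyltransferase mat1a, which makes the cell's main methyl donor in liver, had 847, 666 and 1518 CPM in adult libraries, against 87.1, 397 and 135 in young and 174, 283 and 501 in old (1.98 ± 0.49, adjusted p = 0.192). The liver phosphofructokinase PFKL, a controlling step of glycolysis, had 55.1, 88.5 and 40.5 CPM in adult libraries, against 11, 31.0 and 9.86 in young and 16.1, 16.0 and 16.7 in old (1.87 ± 0.39, adjusted p = 0.117). Ornithine aminotransferase OAT, which breaks down ornithine, had 476, 462 and 621 CPM in adult libraries, against 18.5, 147 and 33.7 in young and 189, 205 and 395 in old (1.98 ± 0.54, adjusted p = 0.203). These 3 enzymes differed in which other age was nearer: the difference from young was the larger for mat1a and OAT, and PFKL stood about equally above both. The transferrin receptor tfr2, which senses iron in hepatocytes, had 237, 244 and 218 CPM in adult libraries, against 83.5, 118 and 158 in young and 49.7, 82.7 and 159 in old (1.11 ± 0.35, adjusted p = 0.213). These 4 genes were picked among members with no overlap between adult and other libraries. No member of the 5 lists passed the test. The called oxoglutarate dehydrogenase gene has no symbol and is on none of them. With the ribosomal RNA covariate the medians were 0.09 for amino acid, -0.04 for methionine, 0.12 for glucose, -0.17 for tricarboxylic acid cycle and -0.01 for iron genes.

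Of 73 endoplasmic reticulum folding and secretion genes, 29 were highest in adult livers and 12 lowest (median 0.42); 1, pdia2, passed the test. When young replicate 1 was left out, 17 of the 73 (23.3%) were highest, beside 28.9% of all genes. By library size alone 13 were highest and 13 lowest (17.8% each), beside 22.3% and 39.8%. XBP1, the transcription factor that expands secretory capacity, had 339, 299.9 and 305 CPM in adult libraries, against 22.8, 81.3 and 104 in young and 24.1, 47.8 and 132 in old (2.2 ± 0.53, adjusted p = 0.176). The vesicle coat gene sec24d had 181, 157 and 191 CPM in adult libraries, against 56.1, 65.2 and 107 in young and 29.0, 48.2 and 108 in old (1.36 ± 0.38, adjusted p = 0.203). Both were above all other libraries in each adult library, having been picked for a lack of overlap. The list's median was -0.32 once ribosomal RNA share was a covariate.

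Among signalling genes, the growth hormone and insulin-like growth factor list had 17 of 48 members highest and 15 lowest in adult livers. These shares, 35.4% and 31.3%, were near the 33.5% and 35.5% of all genes. Leaving out young replicate 1 gave 19 highest and 8 lowest of 49, and with the ribosomal RNA covariate 24 and 11 of 48. Its member stat5a, which carries growth hormone signals into the nucleus, had 23.8, 25.7 and 37.8 CPM in adult libraries, against 6.71, 8.15 and 13.5 in young and 8.03, 8.12 and 13.6 in old (1.59 ± 0.32, adjusted p = 0.113). IGFBP4, which binds insulin-like growth factors, had 10.9, 14.3 and 11.2 CPM in adult libraries, against 1.69, 3.36 and 5.61 in young and 1.74, 2.59 and 3.99 in old (1.95 ± 0.42, adjusted p = 0.133). Of the circadian list, 18 of 36 genes were highest and 7 lowest (median 0.20).

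Markers of other cell types were examined for the same pattern. The fibroblast, stellate and matrix list had 23 of 40 genes (57.5%) highest in adult livers and 3 (7.5%) lowest, beside 33.5% and 35.5% of all genes. Its median contrast was 0.95, which was 0.87 under the ribosomal RNA covariate and 0.0037 with the exocrine pancreas level as one. None of the 40 passed the test. Smooth-muscle actin acta2 had 57.9, 11.3 and 6.70 CPM in adult libraries, against 1.15, 1.57 and 4.17 in young and 0.0561, 1.67 and 4.87 in old (3.48 ± 0.93, adjusted p = 0.199). The endothelial receptor kdr, for vascular growth factor, was even across adult libraries at 21.2, 19.9 and 20.2 CPM, against 6.06, 7.07 and 9.19 in young and 1.85, 7.00 and 4.36 in old (1.83 ± 0.37, adjusted p = 0.115). Neither gene overlapped between the adult libraries and the others, which was a condition of their choice. The endothelium list, to which kdr belongs, was mixed: 9 of 20 tested genes were highest in adult livers and 6 lowest (median contrast 0.24). All 3 adult libraries lay above the 6 others for 2 of the 20, beside 740 of all 13971 genes (5.30%). None of the 20 passed the test. The list's median was 0.029 under the ribosomal RNA covariate and -0.020 with the exocrine pancreas level as one. The chloride channel cftr is a bile duct marker also used by pancreatic ducts. It had 2.76, 2.11 and 2.09 CPM in adult libraries, against 0 in all 3 young and 0, 0 and 0.0928 in old (adjusted p = 0.0504). The rest of the bile duct list did not follow it. Of 12 tested genes 1 was highest in adult livers and 4 lowest (8.33% and 33.3%), beside 33.5% and 35.5% of all genes. The macrophage list had 9 of 26 genes highest (34.6%, near the 33.5% of all genes) and 4 lowest (15.4%, median 0.66). Its median was 1.35 against young and -0.22 against old, and with the exocrine pancreas level as a covariate the median contrast was -0.064.

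**Figure D4:**
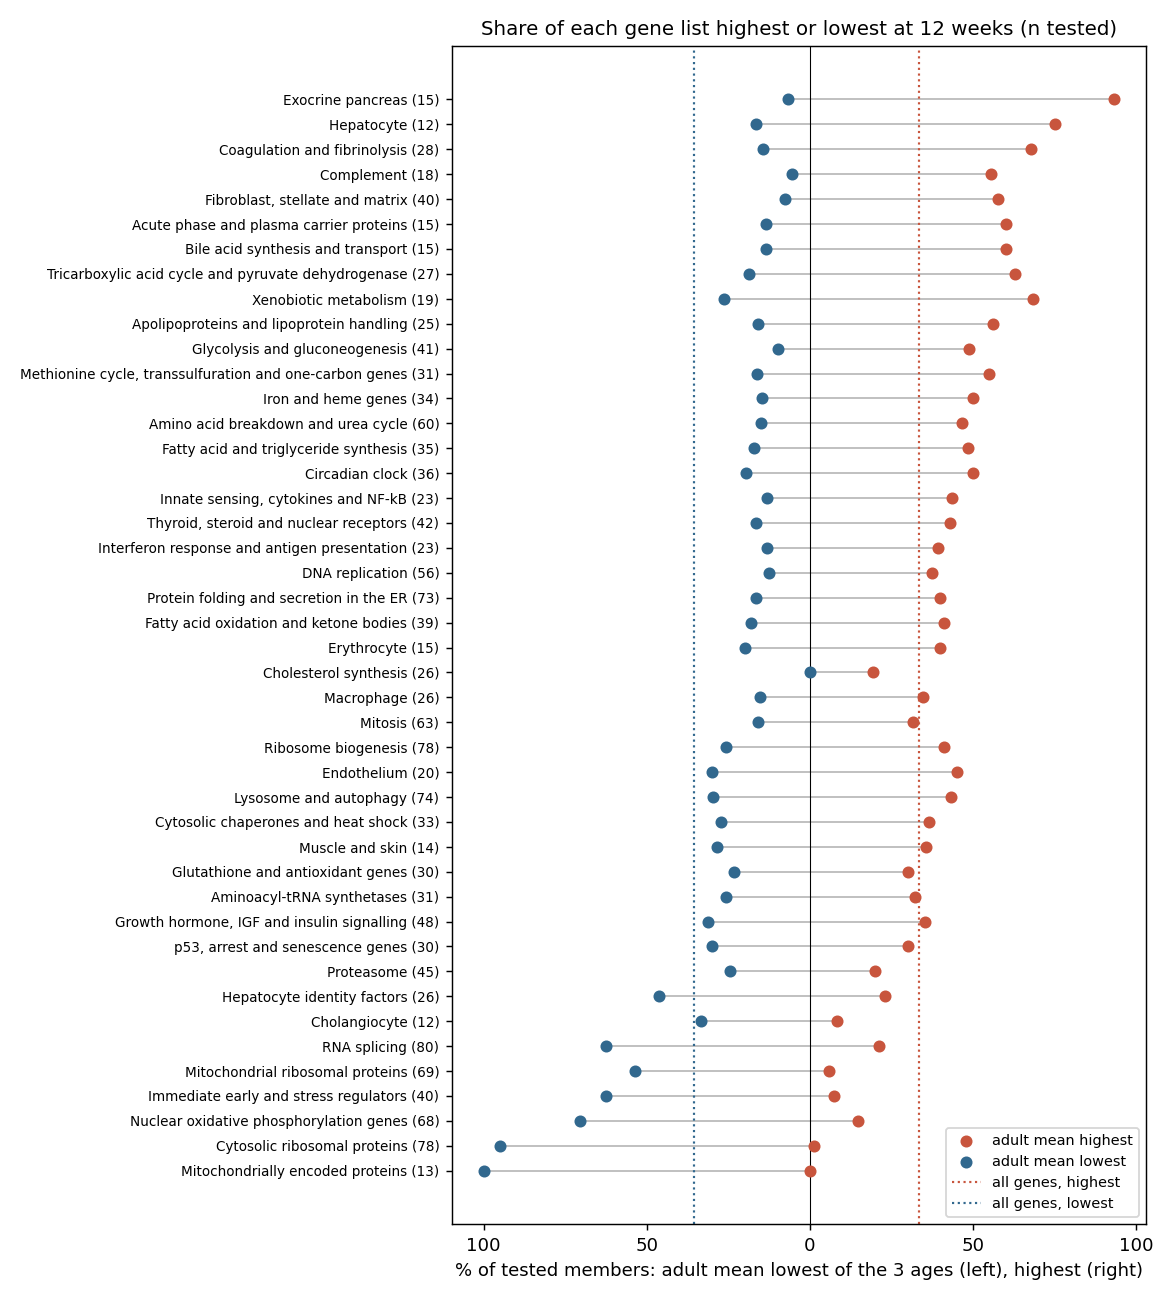
Percent of each list's tested members whose adult mean was the highest (right) or the lowest (left) of the 3 ages, with dotted lines at the share of all genes tested (33.5% highest, 35.5% lowest) and the number tested beside each name. Among the lists drawn, those with at least 10 genes tested, the exocrine pancreas, hepatocyte, xenobiotic and coagulation lists have the largest shares of genes highest in adult livers, and the cytosolic ribosomal and mitochondrially encoded lists the largest shares of genes lowest there.

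No gene dipped at 12 weeks in the edgeR test; 1235 genes with the adult mean lowest had an unadjusted p under 0.05. DESeq2 called 499 dips, limma-voom 0 and limma-voom with quality weights 716. Without young replicate 1 edgeR called 7 dips, and without young replicate 3 it called 4. The 12 named dip genes below were those of smallest unadjusted p with all 3 adult libraries under the 6 others, and none passed the test: GNPDA2, EEF2, FAM193A, brd2a, KMT2A, ENSNFUG00015019853, SNRNP40, HPRT1, VPS13D, STK11IP, RPLP0 and BLOC1S5. Their contrasts were -0.91 to -2.53.

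GNPDA2, which turns glucosamine phosphate back into a sugar of glycolysis, had 7.63, 4.81 and 6.42 CPM in adult libraries, against 32.4, 17.3 and 11.9 in young and 35.5, 25.4 and 27.5 in old (-1.96 ± 0.38, adjusted p = 0.0976). Translation elongation factor EEF2, which moves the ribosome along its message, had 889, 842 and 927 CPM in adult libraries, against 2893, 1500.1 and 1456 in young and 3034, 2904 and 2403 in old (-1.39 ± 0.29, adjusted p = 0.116). HPRT1, which salvages purine bases, had 50.5, 55.5 and 57.7 CPM in adult libraries, against 107, 81.8 and 96.5 in young and 115, 105 and 112 in old (-0.91 ± 0.22, adjusted p = 0.164). The adult libraries varied little for EEF2 and HPRT1. In all 3 genes the lowest of the other libraries was above the adult ones, which was a condition of their choice. The spliceosome gene SNRNP40 had 9.61, 8.27 and 9.58 CPM in adult libraries, against 20.9, 28.2 and 21.0 in young and 26.4, 18.8 and 14.8 in old (-1.24 ± 0.29, adjusted p = 0.164). The chromatin gene brd2a, which reads acetylated histones, had 16.2, 17.2 and 22 CPM in adult libraries, against 68.7, 49.1 and 37.6 in young and 162, 104 and 43.8 in old (-1.99 ± 0.42, adjusted p = 0.124). RPLP0, of the ribosome's stalk, had 545, 538 and 573 CPM in adult libraries, against 4753, 913 and 1227 in young and 4301, 3218 and 2071 in old (-2.30 ± 0.54, adjusted p = 0.169). Young replicate 1 and old replicate 1, the libraries with the most ribosomal RNA, were the highest for RPLP0. Without young replicate 1 the adjusted p was 0.0475 for EEF2 and 0.0475 for RPLP0, and 0.0508 for GNPDA2. With the ribosomal RNA covariate the contrasts were -0.64 for EEF2 (adjusted p = 0.488), -0.41 for RPLP0 (adjusted p = 0.657) and -1.13 for GNPDA2 (adjusted p = 0.545).

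**Figure D5:**
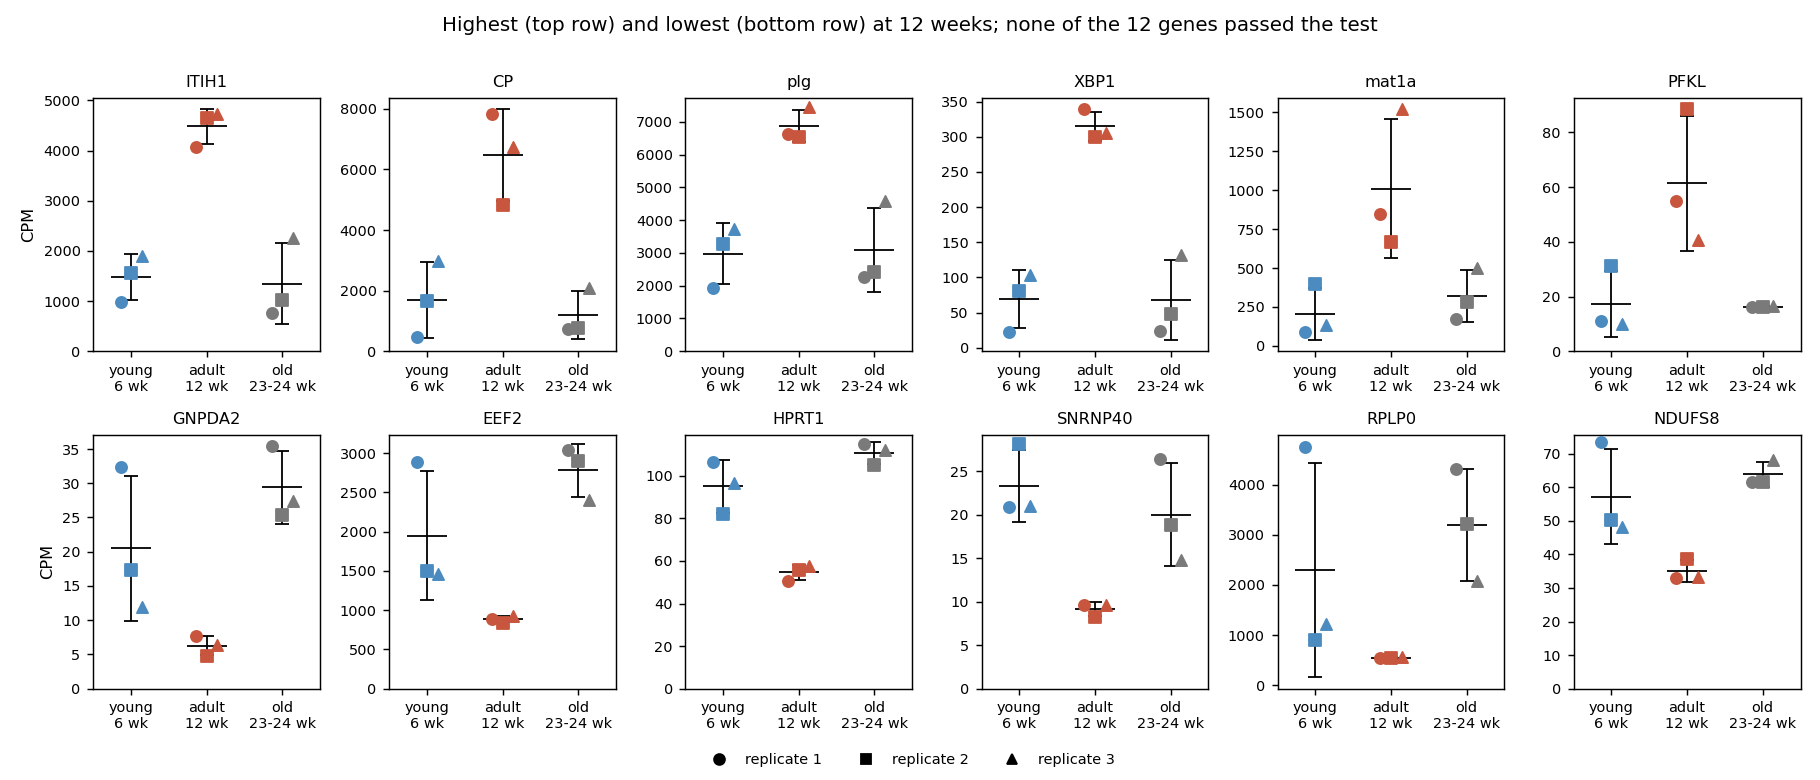
CPM in each library of 6 genes with their highest (top) and 6 with their lowest (bottom) levels at 12 weeks, none of which passed the test, in young, adult and old livers; horizontal lines are means and bars SD (n = 3). The adult libraries of EEF2, at 842 to 927 CPM, and of the other genes in the bottom panels lie below every other library, and those of XBP1, at 299.9 to 339 CPM, and of the other genes in the top panels lie above.

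Protein genes of the cytosolic ribosome had their lowest mean at 12 weeks more often than the 35.5% of all genes. Of 78 cytosolic ribosomal protein genes 74 were lowest in adult livers and 1 highest, all 3 adult libraries lay below the 6 others for 14, or 17.9% beside 4.83% of all genes, the median contrast was -1.11, and none passed the test. Their summed level was 15304, 15558 and 14487 CPM in adult libraries, against 47395, 14382 and 18708 in young and 51113, 38626 and 29365 in old. Young replicate 2 was below all 3 adult libraries, so the summed levels overlapped. Without young replicate 1, 57 of the 78 (73.1%) were lowest (median -0.73), beside 28.3% of all genes. With the ribosomal RNA covariate the median was 0.26, with 51 (65.4%) highest and 4 (5.13%) lowest, beside 30.7% and 39.8%. Ribosomal RNA, here mostly mitochondrial, is not a ribosomal protein message, and its part in these values was not tested. The small-subunit gene rps9 had 72.5, 76.7 and 76.9 CPM in adult libraries, against 1027, 126 and 142 in young and 965, 545 and 299 in old (-2.76 ± 0.74, adjusted p = 0.199). Ribosomal protein genes have processed copies in many genomes, so reads may be shared.

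Respiratory chain genes had their lowest mean at 12 weeks more often than all genes did, and none passed the test. Of 68 nuclear oxidative phosphorylation genes 48 were lowest in adult livers and 10 highest (median -0.46), and of the 13 mitochondrially encoded genes 13 were lowest (median -1.27). Without young replicate 1, 39 of the 68 (57.4%, median -0.23) and 7 of the 13 (53.8%, median -0.51) were lowest, beside 28.3% of all genes. Once ribosomal RNA share was a covariate the medians were 0.14 and 0.99, and with the exocrine pancreas level as one they were 0.061 and 0.27. The fit with ribosomal RNA share sets the 13 mitochondrially encoded genes against a covariate that is itself mostly mitochondrial RNA. NDUFS8, a subunit of complex I, had 33.1, 38.8 and 33.2 CPM in adult libraries, against 73.5, 50.2 and 48.2 in young and 61.7, 61.7 and 68.3 in old (-0.79 ± 0.24, adjusted p = 0.211). No adult library of NDUFS8 reached the others, a lack of overlap that its choice required. Of 69 mitochondrial ribosomal protein genes 37 were lowest and 4 highest (median -0.26), and of 80 splicing genes 50 and 17 (median -0.36); with the exocrine pancreas level as a covariate the medians were -0.042 and -0.035, and they were -0.37 and -0.29 under the ribosomal RNA covariate. Of 40 immediate early genes 25 were lowest in adult livers and 3 highest (median -0.73). Without young replicate 1, 19 (47.5%) were lowest (median -0.49), beside 28.3% of all genes. With the ribosomal RNA covariate 15 (37.5%) were lowest, beside 39.8% of all genes. In that fit 10 of the 40 were highest, beside 30.7% of all genes (median -0.33). FOSL2, a member of the AP-1 family, had 0.825, 0.899 and 0.962 CPM in adult libraries, against 3.71, 2.16 and 1.19 in young and 6.90, 5.23 and 2.46 in old (-1.91 ± 0.58, adjusted p = 0.211).

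Of the 26 genes on the hepatocyte identity list of transcription factors, 12 (46.2%) were lowest in adult livers and 6 (23.1%) highest (median -0.34). The shares of all genes were 35.5% and 33.5%. The median was -0.13 without young replicate 1, and 0.11 with the ribosomal RNA covariate. With that covariate 10 (38.5%) were highest and 8 (30.8%) lowest, beside 30.7% and 39.8% of all genes. The nuclear receptor nr5a2, which drives bile acid and lipid genes, had 28.7, 28.6 and 31.3 CPM in adult libraries, against 75.6, 68.4 and 47.0 in young and 57.0, 44.8 and 44.9 in old (-0.92 ± 0.25, adjusted p = 0.199). Its adult values did not overlap the others, which was a condition for naming it. Of 45 proteasome genes 9 were highest and 11 lowest in adult livers (median 0.13), and 25 lay between the other ages. Leaving out young replicate 1 gave 3 highest and 9 lowest (median -0.055), and with the ribosomal RNA covariate 5 and 34 (median -0.54). The adult mean lay between the young and old means for 21 of 26 cholesterol synthesis genes, 28 of 56 DNA replication genes and 33 of 63 mitosis genes. Over all genes it did so for 4323 of 13971. Of the 63 mitosis genes 1, smc2, was called as a peak.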

How the data were processed

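Bulk liver RNA of male GRZ killifish was measured in 9 libraries at 3 ages. Per the labels' protocols, RNA came from TRIzol lysates with DNase treatment and column cleaning, and a SMART-Seq mRNA kit made the libraries. DRAGEN is listed, with no version, per the submitters' processing notes; no genome build or annotation is given in the sources used here. The table of estimated counts and the table of TPM values (counts per length, scaled to a fixed total) per gene were used as the authors deposited them, and every library column matched its label. Whether counting used strand is likewise not stated there.

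Estimated counts were rounded and filtered with filterByExpr, leaving 13971 of 25475 genes, and scaled by TMM. edgeR 4.0.16 (R 4.3.3) was fitted with 1 mean per age to all 9 libraries; the contrast was adult minus the average of young and old, with Benjamini-Hochberg adjustment over all genes tested at 0.05. The common coefficient of variation between samples was 0.614, and log2 differences carry their SE. CPM are counts scaled by TMM library sizes. The procedure was tested on simulated data. Library sizes of 19600311 to 33951412 counts limit genes under a few CPM, and SD or ranges over 3 libraries give the precision.

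Up to 12 peaks and 12 dips were named by size of the contrast among called genes of at least 10 CPM. All had no overlap between adult and other libraries. A direction with fewer than 12 such genes was filled to 12 by smallest p, which applied to the dips only. Gene lists were matched by symbol, so a gene without a symbol is on no list. Of each gene list, up to 3 members were named by smallest p among those with no overlap. That lack of overlap was therefore a condition of the choice, not a result. The most abundant cell type markers were named too. The text prints some of these. smc2 and the Toll-like receptor, oxoglutarate dehydrogenase, DEC1B, ehd3, trypsin-like, apoda.2 and aquaporin genes are described because they belong to small called sets, and were chosen after their values were seen, as were furina, IDE, INSIG1, amy2al2 and the second pla2g1b gene. The contrast and the lists were chosen with earlier results of these data known. Alternatives were other scalings, filters and covariates, limma 3.58.1, DESeq2 1.42.0 (missing adjusted p left missing), a replicate block and leaving out each library. One member of a gene list is not reported here.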

Additional observations from a re-analysis of the deposited data

How the results depend on the processing

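All of the 40 peaks that were tested had contrasts above 0 in 25 of 26 alternatives. In the last, the pancreas covariate, 38 of the 40 did, and adjusted p ran from 1.42e-13 to 1 over the alternatives. A filter at a mean of 10 CPM left 35 of the 40 to test. The number of peaks was 307 with DESeq2 and 1000 with limma-voom and sample quality weights. With pancreas and islet genes removed it was 17, where 27 of the 40 were left to test. It was 0 with the ribosomal RNA share as covariate (1111 genes at an unadjusted p under 0.05) or the exocrine pancreas level as one (100 genes). The number of dips was 2 by library size alone, 1 without a filter on low counts, 499 with DESeq2 and 716 with quality weights. Leaving out 1 library at a time gave 0 to 43 peaks and 0 to 7 dips, with 0 peaks without adult replicate 1, adult replicate 3 or any old library; of the main 40, 35 were called without adult replicate 2 and 1 without young replicate 2. With the replicate number as a replicate block there were 0 peaks and 0 dips (2520 genes at an unadjusted p under 0.05). Same-numbered libraries of different ages deviated together at correlations of -0.05 to 0.21, and differently numbered ones at -0.21 to 0.15. The numbers were not taken as a pairing in the main fit. Whether same-numbered libraries share a batch was not tested. Among 75 named genes followed through the alternatives, signs turned with the pancreas covariate for the called trypsin-like gene ENSNFUG00015003384 (-0.18), PLA2G1B (-0.083), amy2al2 (-0.032), TNFAIP3 (-0.30), INS (-2.88) and GCGB (-2.94), and with the ribosomal RNA covariate for rps9 (0.010), CRY2A (-0.93) and the second pla2g1b gene (0.29). Of 51 list medians, 26 changed sign with the ribosomal RNA covariate, 15 with the pancreas covariate, and 41 kept it in every scaling. The causes were not tested. Ribosomal RNA share is lowest and the exocrine pancreas level highest in all 3 adult libraries. Neither covariate can therefore be told apart fully from age in 9 libraries, which limits what a fit with either can show.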

Other observations

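Single members of the immune, lysosomal, clock and antioxidant lists gave further levels that were extreme at 12 weeks, none past the edgeR test. The called Toll-like receptor gene and DEC1B are on none of these lists. Of 23 interferon and antigen presentation genes 9 (39.1%) were highest in adult livers, beside 33.5% of all genes, and 3 lowest (median contrast 0.23). Of 23 innate sensing genes 10 (43.5%) were highest and 3 lowest (median 0.30). Once the exocrine pancreas level was a covariate, 7 innate sensing genes were highest and 10 lowest (median -0.20). The invariant chain cd74a, which guides antigen-presenting molecules to the endosome, had 38.5, 11.4 and 10.1 CPM in adult libraries, against 0.873, 2.38 and 3.09 in young and 5.05, 7.00 and 6.59 in old (2.45 ± 0.50, adjusted p = 0.115). TNFAIP3, a brake on inflammatory signalling, had 24.2, 9.89 and 14.8 CPM in adult libraries, against 1.15, 2.19 and 8.07 in young and 4.83, 2.59 and 3.43 in old (2.13 ± 0.56, adjusted p = 0.199). Adult replicate 1, the library with the most pancreas transcripts, was the highest for both. The lysosomal mannosidase man2b1 had 134, 77.1 and 132 CPM in adult libraries, against 15.1, 28.3 and 34.3 in young and 68, 69.5 and 72.3 in old (1.42 ± 0.29, adjusted p = 0.115). Of 74 lysosome and autophagy genes 32 (43.2%) were highest and 22 (29.7%) lowest in adult livers (median 0.13). That median was -0.16 with the ribosomal RNA covariate and -0.12 with the exocrine pancreas level as one. The clock repressor CRY2A had 53.6, 64 and 52.6 CPM in adult libraries, against 0.819, 23.8 and 36.4 in young and 3.65, 11.1 and 10.1 in old (2.12 ± 0.74, adjusted p = 0.227). The hour at which fish were sampled is not given in the sources used here. GCLC, which starts glutathione synthesis, had 29.2, 24.5 and 22.8 CPM in adult libraries, against 5.57, 17.6 and 14.7 in young and 1.8, 6.14 and 9.46 in old (1.57 ± 0.48, adjusted p = 0.211). Its list did not follow it. Of 30 glutathione and antioxidant genes 9 (30.0%) were highest and 7 (23.3%) lowest (median 0.068), beside 33.5% and 35.5% of all genes.

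Within lists that were mostly lowest or mixed at 12 weeks, single members went both ways. The splicing repressor ptbp1a had 27.6, 29.9 and 28.3 CPM in adult libraries, against 11.1, 26.3 and 16.3 in young and 8.70, 7.31 and 12.2 in old (1.14 ± 0.31, adjusted p = 0.199). LSM8, of the spliceosome's U6 particle, was lower, with 10, 8.41 and 8.62 CPM in adult libraries, against 30.3, 13.4 and 16.3 in young and 25.6, 23.4 and 19.8 in old (-1.25 ± 0.33, adjusted p = 0.199). Of 78 ribosome biogenesis genes 32 (41.0%) were highest and 20 (25.6%) lowest in adult livers. Without young replicate 1 they were 18 and 20 (23.1% and 25.6%), beside 28.9% and 28.3% of all genes. By library size alone they were 10 and 23 (12.8% and 29.5%), beside 22.3% and 39.8%. With the ribosomal RNA covariate they were 8 and 51 (10.3% and 65.4%), beside 30.7% and 39.8%. UTP20 stood at 20.9, 22.2 and 19.9 CPM in adult libraries, against 13, 17.5 and 13.5 in young and 5.56, 9.34 and 2.69 in old (1.18 ± 0.35, adjusted p = 0.211), and MRTO4 at 15.9, 12.1 and 10.3 CPM in adult libraries, against 32.6, 18.6 and 18.2 in young and 34, 30.9 and 31 in old (-1.09 ± 0.30, adjusted p = 0.199). None of these 4 genes overlapped between the adult libraries and the others, a condition of their choice.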
